A study of Homo sapiens with 4 samples.

Results

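The large subunit of the cytosolic ribosome, the 60S subunit, is built from ribosomal RNAs and a set of ribosomal proteins named RPL, with the acidic stalk proteins named RPLP. The genes were chosen by symbol, as protein-coding genes named RPL with a number and an optional letter or named RPLP0, RPLP1 or RPLP2, without pseudogenes. This gave 52 genes with 520 listed transcripts, out of 59769 genes and 227368 transcripts in the count table. The symbol pattern left out the subunit gene RPL36AL, which is described apart at the end. By annotation, 280 of the 520 transcripts were protein_coding, 153 retained_intron, 55 protein_coding_CDS_not_defined, 31 nonsense_mediated_decay and 1 non_stop_decay.

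The study exposed H1299, a widely used human line of non-small-cell lung carcinoma, to mercury chloride at a concentration chosen for having no effect on viability. The EtOH group received the solvent, ethanol at 0.6%, and the HgCl2 group received 5 μM HgCl2, both for 48 h, and polyadenylated RNA was sequenced. Each group had 2 columns of counts per transcript. Within a group the columns lay closer together than sampling noise alone gives, so each group was counted as 1 sample. Over the RPL transcripts the variance between the columns was 0.49 times the sampling variance in EtOH and 0.685 times in HgCl2, against 13.4 times between the groups. For this reason no p-value is given, and each fold change describes these libraries. Where the text below says that columns of the groups overlap, or that both columns were higher or lower, this describes the counts only. It adds no replication, and the share of all transcripts without overlap was not counted. Intervals in brackets are 95% Clopper-Pearson intervals, which cover counting error only.

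Most ribosomal protein genes are expressed from short housekeeping promoters as abundant mRNAs that begin with a terminal oligopyrimidine (TOP) tract, through which the mTOR pathway adjusts their translation. Newly made proteins enter the nucleolus, where they join ribosomal RNA precursors, and surplus copies are degraded. Several of these genes also give transcripts that keep an intron or carry an early stop codon. Such forms do not encode the full protein and are often held in the nucleus or degraded, and in a few genes the protein itself controls its own splicing.

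The count table gave each transcript its own row, and the counts followed the bases that a transcript shared with no other. Of the 520 RPL transcripts, 254 had no exonic base of their own, and 7 of these (2.76%) had any count. Of the 266 transcripts with bases of their own, 148 (55.6%) had a count. The Spearman correlation of the count with the longest run of own bases, here called the own stretch, was 0.56 over these 266 transcripts, which share genes and libraries. The 138 transcripts with an own stretch of at least 150 bases held 95.3% of all RPL counts. The reference transcript of a gene, named canonical by Ensembl, had a mean of 0 counts for 33 of the 52 genes, and 19 of the 52 had no base of their own. A count in this table is therefore described below with the place of the own stretch, and is not read as the level of the gene's full mRNA. How reads on shared bases were counted is not given in the sources used here, nor is the treatment of reads that also match processed pseudogenes, of which this family has many. The exons come from GENCODE 44, a later release than the Ensembl 98 of the authors.

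**Figure D1:**
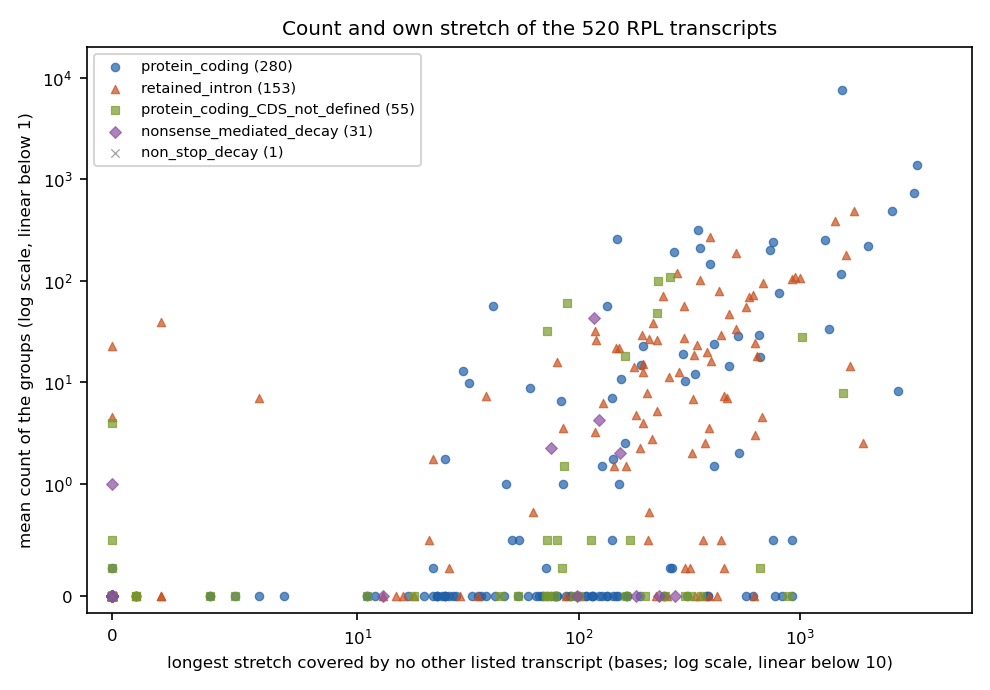
The mean count over both groups (vertical axis, log scale, linear below 1) of each of the 520 RPL transcripts is plotted against its own stretch in bases (horizontal axis, log scale, linear below 10), with a colour and shape for each annotated type. Transcripts with no base of their own lie at the left edge, where 7 of 254 had a count, and the highest point is RPL22 ENST00000234875.

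The intronic edges of transcripts that differed between the groups are shown here, as the annotated exons place them. Reads across these edges were not counted apart. Each line gives 10 exon bases and 40 intron bases at a splice site that the transcript, by annotation, reads through without splicing. Bases run 5′ to 3′ on the gene's strand, from GRCh38. Capitals mark the intron's GT at a 5′ splice site or its AG at a 3′ splice site. The set holds transcripts that differed at least 2-fold between the groups and that read through such an edge.
RPL5 ENST00000461952, 3′ splice site of intron 1, chr1:92833349-92833398, plus strand: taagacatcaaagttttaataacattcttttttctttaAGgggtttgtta
RPL5 ENST00000497519, 3′ splice site of intron 5, chr1:92837416-92837465, plus strand: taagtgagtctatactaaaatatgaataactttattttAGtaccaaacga
RPL9 ENST00000642337, 5′ splice site of intron 3, chr4:39458154-39458203, minus strand: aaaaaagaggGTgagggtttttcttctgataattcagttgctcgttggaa
RPL36A ENST00000392994, 5′ splice site of intron 4, chrX:101395448-101395497, plus strand: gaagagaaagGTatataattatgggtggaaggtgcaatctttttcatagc
RPL41 ENST00000552314, 5′ splice site of intron 1, chr12:56116790-56116839, plus strand: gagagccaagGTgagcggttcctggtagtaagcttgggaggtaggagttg
RPL27A ENST00000529227, 5′ splice site of intron 2, chr11:8683256-8683305, plus strand: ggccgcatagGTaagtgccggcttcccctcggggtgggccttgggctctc
RPL7A ENST00000492798, 3′ splice site of intron 6, chr9:133350962-133351011, plus strand: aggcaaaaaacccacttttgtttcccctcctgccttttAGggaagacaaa
RPL26 ENST00000583515, 3′ splice site of intron 1, chr17:8382306-8382355, minus strand: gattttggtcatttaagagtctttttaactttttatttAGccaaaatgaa
RPL17 ENST00000581741, 5′ splice site of intron 4, chr18:49490753-49490802, minus strand: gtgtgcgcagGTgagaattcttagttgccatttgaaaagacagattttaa
RPL15 ENST00000465786, 5′ splice site of intron 3, chr3:23918567-23918616, plus strand: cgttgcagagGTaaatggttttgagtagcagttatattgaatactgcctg
RPL7A ENST00000463740, 5′ splice site of intron 5, chr9:133350310-133350359, plus strand: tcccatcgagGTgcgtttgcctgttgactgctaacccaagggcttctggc

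Of the 30 introns that held the own stretch of an RPL transcript with a mean of at least 30 counts, all began with GT. The 6 letters GTAAGT opened 16.7% of these 30 introns, 21.2% of the 236 introns of canonical RPL transcripts and 13.9% of the 185164 introns of canonical transcripts of all protein-coding genes. The letters GTGAGT opened 13.3%, 22.5% and 14.2% of the same 3 sets. Both motifs were read only at the first intron base on the transcribed strand, and they are a description of these letters alone.

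The total count per column was between 4720978 and 5053120. Of the 52 RPL genes, 45 had a count and 7 had none, namely RPL3L, RPL10A, RPL10L, RPL13A, RPL28, RPL36 and RPL39L. Of the 520 transcripts, 155 had a count, 103 entered the fit with a mean FPKM (fragments scaled by transcript length and depth) above 1 in at least 1 group, and 46 transcripts of 27 genes had a mean of at least 30 counts over both groups. The fit gave log2 fold changes of HgCl2 over EtOH, and a transcript is called at least 2-fold higher or lower where this value was at least 1 in size. A filter that asks for FPKM in only 1 group lets in transcripts that are high in just that group. Members are therefore read mainly at a mean of at least 30 counts over both groups, which can still be reached through 1 group. Some transcripts called below averaged under 30 counts in the other group. Among them were those of RPL7, RPL9, RPL26 and RPL27A in EtOH, and RPL7A ENST00000463740 in HgCl2.

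The markers of the line were mixed. VIM, the intermediate filament of mesenchymal cells, had 620 and 628 counts in EtOH and 501 and 511 in HgCl2. The keratin gene KRT8 had 53 and 58 counts in EtOH and 4 and 4 in HgCl2, and KRT18 had 23 and 24 against 18 and 31. EPCAM, the surfactant genes SFTPB and SFTPC and the leukocyte markers PTPRC and CD68 were at 0 in every column. The fibroblast gene COL1A1 had 13 and 18 against 3 and 4. KRT7 (15, 14, 3 and 2), CDH2 (13, 13, 1 and 2), PECAM1 (5, 4, 1 and 2) and NKX2-1 (2, 0, 0 and 0) were the other markers read, in the order EtOH replicates 1 and 2 and HgCl2 replicates 1 and 2. Marker counts also depend on own bases, which are not given here for these genes, so a count of 0 does not show that a gene was silent. In bulk RNA, fewer cells of a type and less RNA per cell cannot be told apart, and the part of these differences in the results below was not tested.

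Summed over all 520 transcripts, the RPL counts were 14849 and 14821 in EtOH and 18249 and 18329 in HgCl2. Both HgCl2 columns were above both EtOH columns. The sum was 0.294% [0.289 to 0.298] of all counts in EtOH and 0.387% [0.382 to 0.393] in HgCl2. With the library scaling of the fit, which differs from these shares, the log2 fold change was 0.45 [0.41 to 0.48]. Scaled by total counts only it was 0.39. RPL22 alone, by transcript ENST00000234875, held 45.7% of the counts, and the 10 most counted transcripts held 73.3%. Without RPL22 the sums were 7702, 7676, 9983 and 9903, a log2 fold change of 0.51 [0.47 to 0.56]. The sum was higher in HgCl2 under every scaling tried, with log2 fold changes from 0.27 to 0.62.

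At the level of single transcripts, most RPL transcripts averaging at least 30 counts were higher in HgCl2. Of these 46, 36 (78.3%) had a log2 fold change above 0 and 10 below, where 61.1% of all 7107 transcripts with that mean were above 0. The RPL median was 0.78, beside a median of 0.21 over all 7107. At least 2-fold higher were 13 (28.3%), against 15.5% of all such transcripts, and at least 2-fold lower were 2 (4.35%), against 9.53%. At a mean of at least 100 counts, 4 of 25 were at least 2-fold higher and 0 were lower, with a median of 0.72, beside 7.62% higher, 3.54% lower and a median of 0.20 over all 3898. Among all 103 RPL transcripts in the fit, 19 were at least 2-fold higher, with 19.2% of all 17547 transcripts, and 26 were at least 2-fold lower, with 34.1% of all. The split differed with scaling, since log2(FPKM + 1) gave 24 higher and 14 lower.

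**Figure D2:**
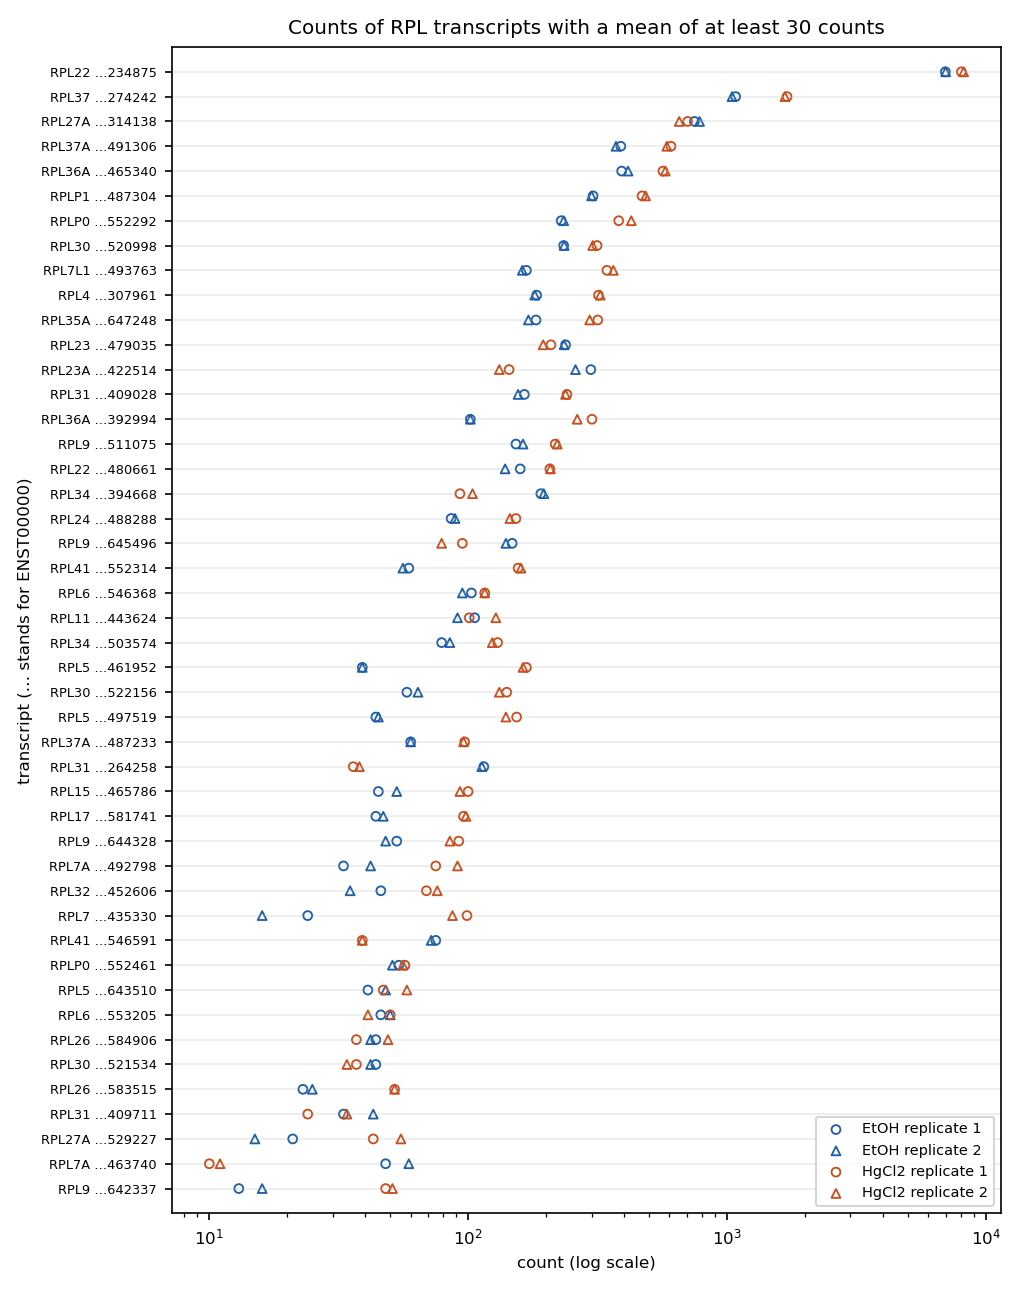
Counts (horizontal axis, log scale) in EtOH replicates 1 and 2 (blue circle and triangle) and HgCl2 replicates 1 and 2 (red circle and triangle) are shown for the 46 RPL transcripts averaging at least 30 counts, ordered by mean. Symbols of a group lie close together, and the red symbols lie to the right of the blue in most rows, with RPL7A ENST00000463740 and RPL31 ENST00000264258 as the called exceptions.

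The annotated types had different medians. Of the 22 retained_intron RPL transcripts averaging at least 30 counts, 21 had a log2 fold change above 0, with a median of 0.82, and the other, RPL30 ENST00000521534, was at -0.13. At least 2-fold higher were 7, and 0 were at least 2-fold lower. Over all 1059 retained_intron transcripts of that mean, 75.1% were above 0 and the median was 0.59. Of these 1059, 32.5% were at least 2-fold higher and 6.70% lower. The share of 31.8% at least 2-fold higher among the RPL forms was thus close to that of the type as a whole. Of the 18 protein_coding transcripts, 3 were at least 2-fold higher and 1 lower, with a median of 0.54, beside 9.48% higher, 8.51% lower and a median of 0.14 over all 4158 of that type. The 5 protein_coding_CDS_not_defined transcripts held 3 higher and 1 lower, with a median of 1.29, beside 28.0% higher, 10.4% lower and a median of 0.53 over all 328 of that type. The 1 nonsense_mediated_decay transcript, RPL26 ENST00000584906, had 44 and 42 counts in EtOH and 37 and 49 in HgCl2, and the groups overlapped.

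The transcripts were also sorted by the place of the own stretch. In 31 of the 46 transcripts the own stretch lay in an intron of the canonical transcript. Of these, 29 had a log2 fold change above 0, with a median of 0.91, and 12 were at least 2-fold higher and 1 lower. Over all 2150 transcripts whose own stretch lay in an intron, 70.4% were above 0 and the median was 0.50, with 28.8% at least 2-fold higher and 8.74% lower. In the other 15 RPL transcripts the own stretch lay in an exon without coding bases, which was the last exon, or downstream of the canonical transcript. Their median was -0.03, with 7 above 0 and 8 below, and 1 was at least 2-fold higher and 1 lower. Over all 3270 transcripts with an own stretch downstream or in any exon without coding bases, 57.6% were above 0 and the median was 0.14. Of these 3270, 10.6% were at least 2-fold higher and 10.3% lower. The 11 RPL transcripts in such an exon had a median of 0.36, beside 0.13 over all, with 6 above 0, against 57.5% of all. The 4 downstream had a median of -0.36, beside 0.20 over all, with 1 above 0, against 59.3% of all. Summed counts differed less by place. Those on intronic own stretches had a log2 fold change of 0.64 [0.58 to 0.70], from 3678 and 3727 counts in EtOH and 5205 and 5261 in HgCl2, and those on exons without coding bases or downstream had 0.38 [0.34 to 0.41], a sum in which RPL22 weighs most.

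**Figure D3:**
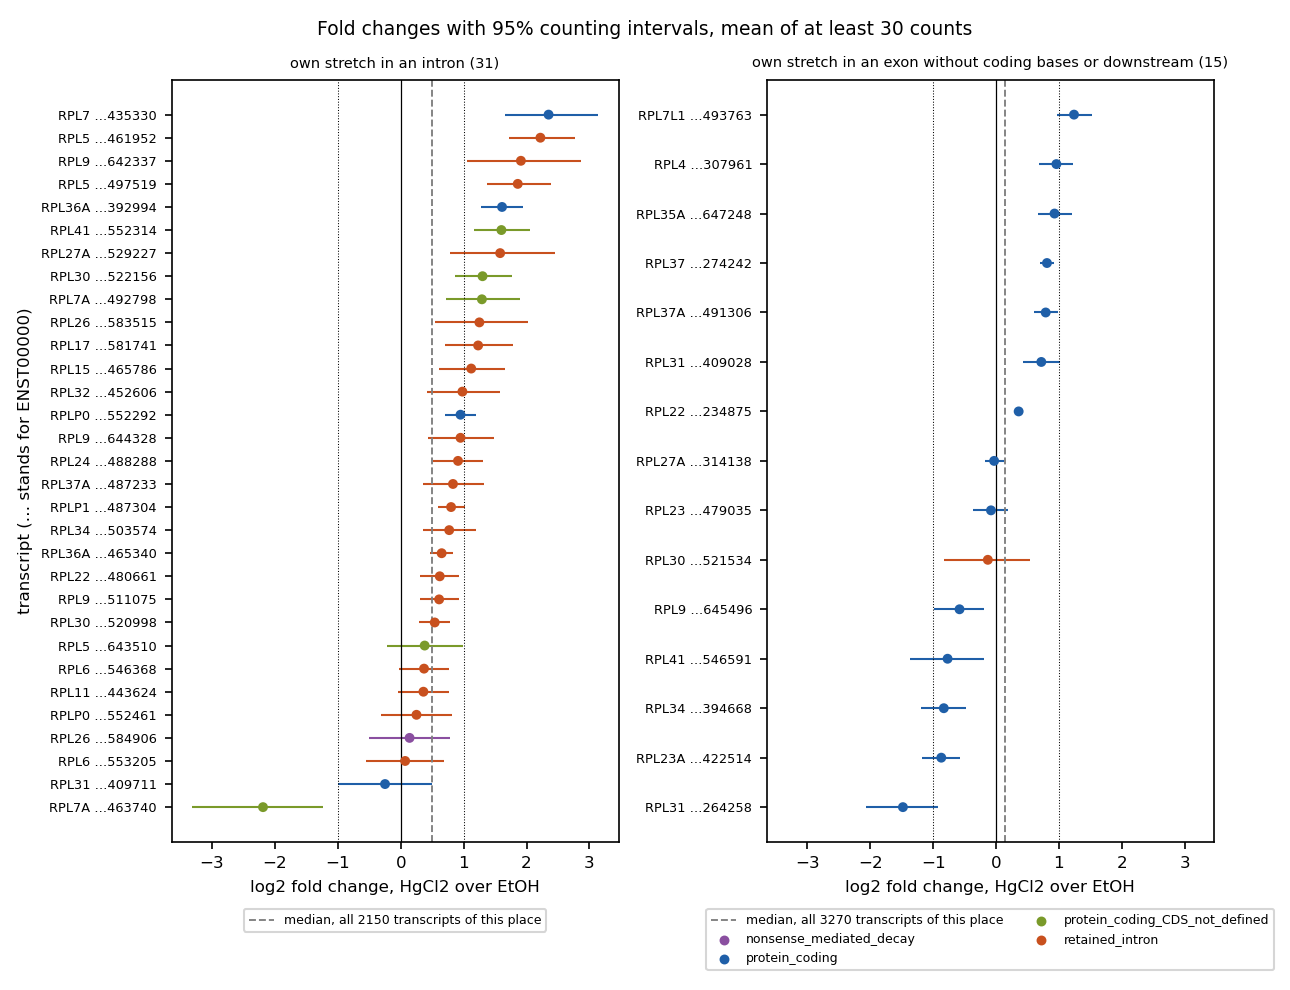
Log2 fold changes of HgCl2 over EtOH (horizontal axis, points) with 95% counting intervals (bars) are drawn for the 31 RPL transcripts with an intronic own stretch (left) and the 15 with an own stretch in an exon without coding bases or downstream (right), coloured by type. Dashed lines mark the medians of all transcripts whose own stretch lies in an intron, 0.50, and in any exon without coding bases or downstream, 0.14, and dotted lines mark a 2-fold difference. On the left 29 of 31 points lie above 0, and on the right 7 of 15, where 70.4% and 57.6% of all transcripts of these places were above 0.

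RPL5 and RPL11 carry the 5S ribosomal RNA into the subunit. RPL5 ENST00000461952, a retained_intron transcript at chr1:92832762-92836271 that covers the 3′ part of intron 1, had 39 and 39 counts in EtOH and 168 and 163 in HgCl2. This was 4.67-fold, a log2 fold change of 2.22 [1.72 to 2.77], and both HgCl2 columns lay far above both EtOH columns. RPL5 ENST00000497519, at chr1:92836610-92841862 with its own stretch in intron 5, had 44 and 45 counts against 154 and 140, a log2 fold change of 1.86 [1.37 to 2.39]. Its exons hold the small nucleolar RNA gene SNORD21, and it was the 1 retained_intron RPL transcript of this mean with such a gene inside, while the 21 without had a median of 0.80. The remaining RPL5 row of this size, ENST00000643510 in intron 6, had 41 and 48 counts in EtOH and 47 and 58 in HgCl2, and here the groups overlapped. Summed over the gene, RPL5 had a log2 fold change of 1.34 [1.09 to 1.61], the highest of the 28 genes with a summed mean of at least 30 counts. Of this sum, 73% in EtOH and 86.8% in HgCl2 lay on retained_intron rows, and the canonical transcript had 0 counts.

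The values of RPL11, the partner of RPL5, lay on both sides of 0. Its retained_intron transcript ENST00000443624, whose own stretch fills intron 4, had 106 and 91 counts in EtOH and 101 and 128 in HgCl2, a log2 fold change of 0.36 [-0.04 to 0.76] with overlapping groups. Its protein_coding transcript ENST00000458455, with an own stretch in intron 1, had 21 and 17 counts in EtOH and 2 and 1 in HgCl2, which is at the floor of 3 counts under which no fold is read. Summed over the gene, RPL11 had 141 and 122 counts against 107 and 132, a log2 fold change of 0.00 [-0.36 to 0.37]. The intervals of the RPL5 and RPL11 sums do not overlap.

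The stalk, formed by RPLP0 as anchor and RPLP1 and RPLP2 as arms, recruits the elongation factors. RPLP0 ENST00000552292, a protein_coding transcript with its own stretch in intron 6, had 229 and 234 counts in EtOH and 382 and 427 in HgCl2, a log2 fold change of 0.95 [0.71 to 1.19]. RPLP1 ENST00000487304, a retained_intron transcript covering the whole of intron 2, had 304 and 300 counts against 470 and 485, at 0.80 [0.59 to 1.02]. In both, each HgCl2 column was above each EtOH column, by less than 2-fold. The retained_intron transcript RPLP0 ENST00000552461, which covers the whole of intron 2, had 54 and 51 against 57 and 56 counts, at 0.25 [-0.32 to 0.82]. The canonical RPLP1 ENST00000260379 had only 28 and 24 against 11 and 8 counts. RPLP2 could not be compared, since its 2 counted transcripts together had 7 and 6 counts in EtOH and 5 and 4 in HgCl2. Its canonical transcript had 0 own bases and 0 counts.

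Genes are grouped here by the place of their proteins for order only, and no pattern by place was tested. Rows of genes for proteins around the catalytic centre and the joining surface had few counts or small fold changes, other than RPL36A. The canonical transcripts of RPL3, RPL10 and RPL36A had 0 counts. RPL3, which reaches towards the peptidyl transferase centre, was counted mostly on the retained_intron transcript ENST00000461967, with 16 and 7 counts in EtOH and 8 and 14 in HgCl2. RPL10, placed late in assembly with the help of NMD3 and LSG1, had 19 and 23 against 29 and 36 counts on the retained_intron transcript ENST00000482732, at 0.77 [-0.06 to 1.64]. RPL23, on the surface where EIF6 and the small subunit bind, had 238 and 235 against 209 and 195 counts on its canonical ENST00000479035, at -0.08 [-0.36 to 0.19]. RPL3 was at 0.08 [-1.25 to 1.41], and the intervals of RPL3, RPL10 and RPL23 all include 0. RPL36A, which touches the exit site for transfer RNA, differed more: its protein_coding ENST00000392994, the form that reads through intron 4 at chrX:101390989-101395793, had 102 and 102 against 301 and 264 counts, 3.06-fold and 1.61 [1.28 to 1.95] on the log2 scale. Its retained_intron form ENST00000465340, in intron 3, had 392 and 415 against 566 and 578 counts, at 0.65 [0.46 to 0.83]. Both forms of RPL36A were higher in both HgCl2 columns.

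Rows of genes whose proteins line or surround the exit tunnel spread over both directions. RPL4, part of the tunnel's narrow point, had 184 and 181 counts in EtOH and 319 and 324 in HgCl2 on the last exon of its canonical ENST00000307961, at 0.96 [0.69 to 1.23]. RPL17 ENST00000581741, with all of intron 4, had 44 and 47 against 96 and 98 counts, at 1.23 [0.71 to 1.78]. Both were higher without overlap. RPL26, near the tunnel's exit, had 23 and 25 against 52 and 52 counts on its retained_intron ENST00000583515, which covers the 3′ part of intron 1, at 1.25 [0.54 to 2.02]. RPL23A, a docking point for the signal recognition particle, had 298 and 260 against 144 and 132 counts on its canonical ENST00000422514, at -0.87 [-1.18 to -0.57]. RPL23A was lower in both HgCl2 columns, and its gene sum of -0.95 [-1.25 to -0.65] was the lowest of the 28 genes. RPL31 stands at the tunnel's mouth, and its canonical protein_coding ENST00000264258, at chr2:101002289-101007267, had 115 and 113 against 36 and 38 counts, at -1.48 [-2.06 to -0.93]. In contrast, its longer protein_coding ENST00000409028, whose own stretch lies downstream of the canonical end, had 165 and 156 against 241 and 238 counts, at 0.72 [0.43 to 1.02].

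RPL31 thus had 3 protein_coding rows with different values, since ENST00000409711 in intron 3 had 33 and 43 against 24 and 34 counts, at -0.25 [-1.0 to 0.49]. The gene's summed counts were 350 and 356 in EtOH and 330 and 346 in HgCl2, at 0.08 [-0.14 to 0.30]. A further downstream form, ENST00000409038, went from 3 and 3 to 20 and 25 counts, and ENST00000441435 from 34 and 41 to 9 and 11. The rows of RPL31 therefore lay on both sides while the gene's sum did not differ beyond its interval.

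RPL7A gave the widest separation within a gene, 3.48 on the log2 scale between its highest and lowest transcript. RPL7A, an RNA-binding protein whose introns host small nucleolar RNAs, had 48 and 59 counts in EtOH and 10 and 11 in HgCl2 on ENST00000463740, at chr9:133348218-133351426 with its own stretch in intron 5. Its log2 fold change of -2.19 [-3.32 to -1.24] was the lowest of the 46, and it was 1 of 2 intronic forms below 0. ENST00000492798, with the 3′ part of intron 6, had 33 and 42 against 75 and 91 counts, at 1.29 [0.72 to 1.89]. Both rows are protein_coding_CDS_not_defined, without overlap between the groups in either, and the gene's sum was 81 and 102 against 85 and 103 counts. The own stretches of the 2 rows are 72 and 89 bases long.

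RPL9 and RPL41 had intronic rows above 0 and a protein_coding row below 0. RPL9 lies at the base of the stalk. Its retained_intron ENST00000642337, in intron 3, had 13 and 16 counts in EtOH and 48 and 51 in HgCl2, at 1.91 [1.05 to 2.87]. The other retained_intron rows of RPL9 were ENST00000644328, with 53 and 48 against 92 and 85 counts, and ENST00000511075, with 153 and 163 against 217 and 221. Its protein_coding ENST00000645496, with an own stretch downstream of the canonical end, had 148 and 140 against 95 and 79 counts, at -0.58 [-0.98 to -0.19]. All 3 intronic rows were higher without overlap and the downstream row was lower without overlap. RPL41, the smallest ribosomal protein, had 59 and 56 against 156 and 160 counts on ENST00000552314, which keeps all of intron 1, at 1.60 [1.16 to 2.06]. Its canonical protein_coding ENST00000546591 had 75 and 72 against 39 and 39 counts in the last exon, at -0.77 [-1.37 to -0.19]. The groups did not overlap in either row of RPL41.

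Of the 14 genes with at least 2 transcripts of a mean of at least 30 counts, 7 had transcripts on both sides of 0. RPL34 was another of these: its retained_intron ENST00000503574 in intron 1 had 79 and 85 against 130 and 124 counts, at 0.77 [0.36 to 1.19], and its protein_coding ENST00000394668, downstream of the canonical end, had 191 and 196 against 93 and 104, at -0.83 [-1.20 to -0.47]. RPL27A, a core protein of the subunit, had 21 and 15 against 43 and 55 counts on the retained_intron ENST00000529227, at 1.58 [0.78 to 2.46]. Its canonical ENST00000314138 had 749 and 784 against 705 and 654 counts on a last exon with an own stretch of 3281 bases, at -0.03 [-0.18 to 0.12]. In RPL30, a kink-turn binding protein, ENST00000522156 in intron 3 had 58 and 64 against 141 and 132 counts, at 1.30 [0.86 to 1.77], and the retained_intron ENST00000520998 in the same intron had 234 and 235 against 315 and 303, at 0.54 [0.29 to 0.79]. Both intronic rows of RPL30 were higher in both HgCl2 columns. Its downstream ENST00000521534, with an own stretch of only 2 bases, had 44 and 42 against 37 and 34 counts, at -0.13 [-0.82 to 0.54].

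**Figure D4:**
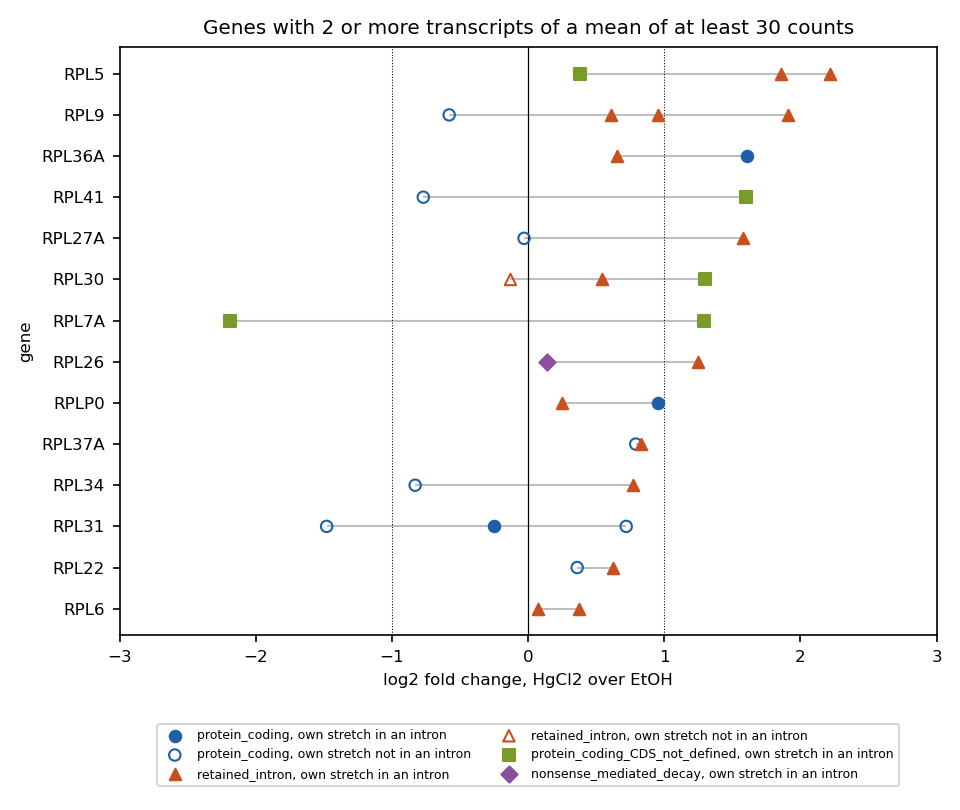
Log2 fold changes of HgCl2 over EtOH (horizontal axis) are plotted for each transcript of the 14 genes with at least 2 transcripts of a mean of at least 30 counts, with shapes for the annotated type and filled symbols where the own stretch lies in an intron. In RPL9, RPL41, RPL27A, RPL30 and RPL34 the open symbol lies at or left of 0 and every filled symbol to its right, and in RPL7A 2 filled symbols lie 3.48 apart. RPL31 differs from these, with open symbols at -1.48 and 0.72 and the filled symbol at -0.25.

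In the remaining genes with such pairs the transcripts lay on the same side. RPL22, an RNA-binding protein on the outer surface of the subunit, had 6985 and 7004 counts in EtOH and 8058 and 8218 in HgCl2 on the last exon of its canonical ENST00000234875, at 0.36 [0.32 to 0.41]. Its retained_intron ENST00000480661 had 159 and 139 against 207 and 208 counts, at 0.62 [0.31 to 0.93]. Per length, the level of ENST00000234875 was 617.8 FPKM in EtOH and 898.1 in HgCl2, while RPLP0 ENST00000552292 had 58.5 and 127.8 FPKM and RPL30 ENST00000520998 had 57.1 and 94.1. FPKM divides by the whole transcript length. Per kilobase of own bases, the mean counts in EtOH and HgCl2 were 4407.4 and 5127.9 for this RPL22 row, 669.1 and 1169.1 for the RPLP0 row and 595.2 and 784.3 for the RPL30 row, a smaller distance between them. FPKM here carries its own scaling, which raised HgCl2 over EtOH by 0.32 on the log2 scale, where the scaling of the fit raised it by 0.14. RPL37A, with a zinc-binding fold, had 389 and 373 against 608 and 586 counts on its canonical ENST00000491306, at 0.79 [0.60 to 0.98], and 60 and 60 against 97 and 96 on the retained_intron ENST00000487233, at 0.83 [0.35 to 1.32]. These 2 rows of RPL37A differed least within a gene, by 0.04. RPL6 had 103 and 95 against 116 and 116 counts on ENST00000546368, at 0.37 [-0.03 to 0.77] without overlap, and 46 and 50 against 50 and 41 on ENST00000553205, at 0.07 [-0.55 to 0.68] with overlap.

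Genes with a single row of this size added further values. RPL37, another zinc-binding protein, had 1081 and 1047 counts in EtOH and 1708 and 1676 in HgCl2 on its canonical ENST00000274242, at 0.81 [0.70 to 0.92]. RPL35A, a gene mutated in Diamond-Blackfan anaemia, had 183 and 171 against 317 and 295 counts on its canonical ENST00000647248, at 0.93 [0.66 to 1.21]. RPL15 had 45 and 53 against 100 and 93 counts on the retained_intron ENST00000465786, which covers all of intron 3, at 1.12 [0.61 to 1.65]. RPL15 was the 1 called transcript that dropped under 2-fold when at least 10 counts were asked in every column. RPL24 ENST00000488288 and RPL32 ENST00000452606, both retained_intron, were at 0.91 [0.52 to 1.31] and 0.98 [0.41 to 1.58]. All 5 were higher in both HgCl2 columns, but RPL24, RPL32 and RPL35A were chosen after their values were seen. Of the other genes with a single row of this size, described in other paragraphs, RPL23 and RPL23A were below 0. RPL4, RPL7, RPL7L1, RPL17 and RPLP1 were above 0, and so was RPL11, with overlapping groups.

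The paralog pairs were counted very unequally. RPL7L1, a relative of RPL7 that takes part in early assembly of the subunit, had 168 and 162 counts in EtOH and 344 and 364 in HgCl2 on its canonical ENST00000493763, at 1.24 [0.97 to 1.52]. It was the 1 transcript with its own stretch in a last exon that was at least 2-fold higher, and the groups did not overlap. RPL7 was counted most on ENST00000435330, with 24 and 16 against 99 and 87 counts, the highest log2 fold change of the 46 at 2.35 [1.65 to 3.14], though its own stretch in intron 1 has only 41 bases. Another row of RPL7, ENST00000431653, also in intron 1, had 22 and 31 against 2 and 4 counts. RPL22L1 and RPL26L1 each had 0 counts in EtOH and 1 in each HgCl2 column. RPL3L, RPL10L and RPL39L were at 0 in every column, where a count of 0 allows up to 3 counts. Their canonical transcripts had 1830, 772 and 12 own bases, so the 0 of RPL39L says least. RPL39 itself was counted mostly on ENST00000468844 in intron 1, with 10 and 12 against 4 and 5.

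Summed per gene, the difference between the groups was smaller than for single transcripts. Of the 28 RPL genes with a summed mean of at least 30 counts, 23 were above 0 and 5 below. Their median was 0.59, beside 0.15 over all 6399 genes of that mean, for which the share above 0 is not given here. The 2 genes at least 2-fold higher were RPL5 and RPL7L1, the latter at 1.24 [1.0 to 1.51], where 11.0% of all such genes were, and 0 were at least 2-fold lower, where 9.56% were. The summed retained_intron counts of all RPL genes were 2764 and 2772 in EtOH and 3830 and 3816 in HgCl2, at 0.61 [0.54 to 0.68], and the protein_coding counts without RPL22 were at 0.44 [0.39 to 0.50].

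Below a mean of 30 counts the balance was the other way, as it was for the whole table. Of 57 such RPL transcripts in the fit, 6 (10.5%) were at least 2-fold higher, against 21.7% of all such transcripts, and 24 (42.1%) were lower, against 50.9%. In 15 of the 57 a group had no more than 3 counts, and in 13 of these it was HgCl2. Among the larger ones were RPL29 ENST00000481629, with 28 and 20 counts in EtOH and 5 and 5 in HgCl2, and RPL4 ENST00000566622, a retained_intron transcript with 37 and 43 against 9 and 15. RPL38, a protein known for its part in translating homeobox mRNAs in mouse, had a gene sum of 38 and 28 against 12 and 10 counts, at -1.44 [-2.57 to -0.42]. These low transcripts held 6.6% of the RPL counts in EtOH and 3.74% in HgCl2.

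The other genes of the pathway held transcripts on both sides, and their counts below stand beside the 15.5% higher, 9.53% lower and median of 0.21 of all transcripts of that mean. Of the 28 transcripts of small-subunit ribosomal proteins with a mean of at least 30 counts, from 17 of 32 genes, 7 were at least 2-fold higher and 6 lower, with a median of 0.37. The summed counts of the small-subunit genes were 3028 and 3085 in EtOH and 3277 and 3180 in HgCl2, a log2 fold change of 0.22 [0.15 to 0.29], below the RPL interval. Among factors that assemble and export the 60S subunit, 18 transcripts of 14 of 30 genes gave 2 higher and 1 lower, with a median of 0.26. The higher were NMD3, the export adaptor, at 1.11 [0.71 to 1.53], and a retained_intron form of LSG1, which releases NMD3, at 1.07 [0.56 to 1.61], and the lower was MRTO4, a stalk assembly factor, at -2.04 [-2.89 to -1.29]. Of 30 transcripts from 15 of 21 other TOP genes, 7 were higher and 2 lower, with a median of 0.48. All of the higher were retained_intron, except NAP1L1 ENST00000618691. Over all 1059 retained_intron transcripts of that mean, 32.5% were at least 2-fold higher and the median was 0.59. The 2 lower were EEF2, at -1.07 [-1.46 to -0.69], and HNRNPA1 ENST00000340913, at -2.06 [-3.04 to -1.20], though other HNRNPA1 rows were above 0, such as ENST00000546500 at 0.79 [0.68 to 0.89]. In the same list a retained_intron form of NACA, in intron 3, went from a mean of 6 to 107.5 counts, at 4.28 [3.14 to 5.78]. Of 4 transcripts of 3 of 6 regulators of TOP translation, 0 were higher and 1, of MTOR, was lower at -1.75 [-2.35 to -1.20], with a median of -0.40, and a retained_intron row of MTOR, ENST00000495435, was at 0.70 [0.02 to 1.41].

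The subunit gene RPL36AL, outside the symbol pattern, was lower. RPL36AL, a paralog of RPL36A, had 1606 and 1674 counts in EtOH and 795 and 790 in HgCl2 on ENST00000298289, at chr14:49618530-49620626, a log2 fold change of -0.91 [-1.03 to -0.78]. This protein_coding row was lower in both HgCl2 columns, whereas both rows of RPL36A described above were higher. Those RPL36A rows have their own stretches in introns, where the median over all transcripts averaging at least 30 counts was 0.50. The canonical RPL36A transcript had 0 counts, so the full mRNAs of the paralogs were not compared. With RPL36AL added, the summed log2 fold change of the subunit genes was 0.36 [0.33 to 0.39].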

How the data were processed

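RNA-seq of H1299 cells treated with EtOH or HgCl2 was analysed from the tables of the whole series, 2 columns per group. The deposited values are counts per Ensembl 98 transcript, which the authors obtained after Trim Galore 0.6.5 and STAR 2.5.4b on GRCh38 with Rsubread 2.0.1. Its counting options are not given in the sources used here. The deposited FPKM values were calculated by the authors from those counts with DESeq2 1.26.0. The poly(A)-selected libraries were prepared with a TruSeq kit. GENCODE 44 on GRCh38 supplied symbols, types, exons and coordinates for 223558 of 227368 identifiers, and 20 annotated RPL transcripts were not among those listed.

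Fold changes were estimated with edgeR 4.0.16 (glmQLFit, TMM, R 4.3.3) on the 17547 transcripts whose mean FPKM exceeded 1 in 1 group or both. Depth was between 4720978 and 5053120 counts per column. Clopper-Pearson intervals were calculated from mean counts scaled as in the fit, and cover counting error only. The code was tested on simulated counts. Alternatives used DESeq2 1.42.0, limma 3.58.1, other filters and scalings, a replicate block, sums per gene and the omission of each column. Tables and figures were made in Python 3.11.15 with pandas 2.3.3, scipy 1.17.1 and matplotlib 3.10.9.

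An own stretch is the longest run of exonic bases that no other listed transcript covers on either strand, placed against the canonical transcript of the gene. The splice site sequences are from GRCh38. Members and lists were chosen with earlier results of these data known. Named were transcripts past 2-fold with a mean of at least 30 counts, the 10 most counted, the most counted transcript of genes of the 5S particle, stalk, catalytic centre and paralog pairs, and genes with both a protein_coding and a retained_intron or nonsense_mediated_decay transcript of that mean. Rows named beyond this, among them those of RPL6, RPL24, RPL29, RPL32, RPL35A and RPL38, were chosen after their values were seen. A few genes outside the members are not reported here.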

Additional observations from a re-analysis of the deposited data

How the results depend on the processing

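Each group counts as 1 sample, so no alternative changes a p-value. The 15 called transcripts averaging at least 30 counts kept their sign and stayed past 2-fold in every fit of single transcripts, except RPL15 ENST00000465786 where at least 10 counts were asked in every column. Scaling moved the median of all transcripts of that mean by 0.14 with no filter, -0.17 when every column had to hold 10 counts and 0.16 with FPKM. Among all RPL transcripts in the fit, the 19 at least 2-fold higher became 38 with no filter, 12 when every column had to hold 10 counts and 2 with counts summed per gene, and the 26 lower became 54, 5 and 3, and 14 with log2(FPKM + 1). At a mean of at least 30 counts, the 13 higher became 19 with no filter and with FPKM, 15 with DESeq2, 4 at a mean of at least 100 counts and 2 per gene, and the 2 lower became 4 when every column had to hold 10 counts and 0 in both other cases. Leaving out a column gave 13 to 15 higher, and 1 to 2 lower, with 1 lower without EtOH replicate 2. The RPL median relative to all transcripts, 0.57, was 0.52 at a mean of at least 100 counts, 0.53 with FPKM and 0.44 per gene, and 0.51 to 0.60 with a column left out. The summed log2 fold change of 0.45 was 0.59 with no filter, 0.27 with at least 10 counts in every column, 0.38 with filterByExpr, 0.49 with DESeq2 size factors, 0.39 with total counts, 0.62 with FPKM, 0.51 without RPL22 and 0.36 with RPL36AL. The last 2, and the alternatives for the numbers called at a mean of at least 30 counts, were added after seeing the data. Summed per gene, RPL31 (0.08) and RPL7A (0.18) were above 0, unlike their lower rows. Replicate numbers did not pair the columns (Pearson r of 0.04 across 7156 transcripts, which are not independent), and the replicate block left 13, 2, 19 and 26 transcripts called and a relative median of 0.57. The mean of at least 100 counts was not applied to all transcripts in the fit, and the prior count, the block, DESeq2, voom and the sum per gene give no other value of the summed counts.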
